A study of Mus musculus with 56 samples.

Results

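The expression of 8 genes of the β-catenin adaptor chain and of the catenin group was examined in mouse mammary tumor cells: Ctnnb1, Jup, Ctnna1, Ctnnd1, Bcl9, Bcl9l, Pygo1 and Pygo2. They are given by name in a fixed list, made with earlier results of these data known, and are 8 of the 20314 genes in the expression table. The cells came from tumors of MMTV-PyMT mice on the FVB/N background, in which the mouse mammary tumor virus promoter drives the polyoma middle T oncogene in the mammary epithelium. All lines therefore carry this oncogene, and according to the methods fibroblasts were removed by differential trypsinization when the lines were made. The β-catenin genotypes were fl/fl, which carries floxed but no mutant alleles, and lines with a D164A, ΔC or dm allele. In D164A/fl, ΔC/fl and dm/fl the mutant allele stood beside a floxed one. In D164A/-, ΔC/- and dm/- the floxed allele was deleted. For such lines the methods describe Cre recombinase delivered by an adenovirus, and sorting of infected cells by GFP. The methods do not name ΔC or dm lines, so that these were made in this way is assumed. What the ΔC and dm mutations change is given neither in the labels nor in the methods. Each genotype had 8 samples, 2 in each of 4 culture conditions, which were cells with and without Wnt3a (100 ng/ml, 3 days) and cells with and without TGFβ (2 ng/ml, 4 days). Separate untreated cells were used for Wnt3a and for TGFβ, here called the Wnt3a and the TGFβ experiment, giving 56 samples in 28 conditions. The treatment text of the labels names Pygo2 lines in place of these β-catenin lines, so the dose and time rest on that text and on the methods. The methods speak of biological duplicates and name the fl/fl and D164A lines among those used here. The labels do not say whether the samples of a genotype were separate lines or cultures, so that p-values measure only the spread between these samples, and a genotype and its cell line cannot be told apart.

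β-catenin, the product of Ctnnb1, works both in cell adhesion and in transcription. At the membrane it binds the tail of classical cadherins and, through α-catenin (Ctnna1), connects them to actin, while p120-catenin (Ctnnd1) binds another stretch of the cadherin tail and keeps cadherins at the surface. Plakoglobin (Jup), the closest relative of β-catenin, works in the same junctions and in desmosomes. In the nucleus β-catenin is a coactivator of Tcf/Lef factors when Wnt ligands block its degradation, and Bcl9 or Bcl9-like (Bcl9l) bind to it and carry a Pygopus protein (Pygo1 or Pygo2) whose PHD finger reads methylated histone H3. In mammary epithelium this signaling sustains stem and progenitor cells.

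The D164A mutation replaces the aspartate at which β-catenin holds Bcl9 and Bcl9-like by alanine. The site is shown first because it is what defines the D164A lines, and the same stretch of plakoglobin is shown beside it. The codon of this aspartate in the transcript Ctnnb1-201 lies in exon 4 of Ctnnb1 on the forward strand, at chr9:120951142-120951144 (GRCm38, GENCODE vM21). The best match of its 57 coding bases in Jup-201 is centred on codon 155, at chr11:100383398-100383400 on the reverse strand. The capitals mark the codon in the reference sequence, without the mutation.
Ctnnb1: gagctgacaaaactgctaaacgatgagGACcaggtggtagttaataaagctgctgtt
Jup: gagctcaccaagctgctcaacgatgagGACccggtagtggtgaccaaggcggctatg
Of the 57 bases, 43 were identical, and the codon was GAC in both genes. The values below sum all reads of a gene, so they show neither the substitution in the D164A lines nor the exons removed by Cre, and a Ctnnb1 level is the sum over all alleles present. Of the other genes, 5 with positions used here lie at chr2:84587096-84658977 (Ctnnd1), chr3:97203658-97298402 (Bcl9), chr3:89430114-89435131 (Pygo2), chr9:44482738-44511906 (Bcl9l) and chr9:72925645-72952586 (Pygo1) in the same build.

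Each sample had between 22.4 and 33.7 M reads in genes (median 26.8 M). A gene with up to 3 reads in a sample was taken as at the floor. In these samples 3 reads correspond to 0.0917 to 0.146 CPM, the library-size scaled unit used throughout. Libraries differed in how strongly the level of a gene followed the GC content of its transcripts. Spearman's ρ between GC content and a gene's deviation from its mean ran from -0.62 in an untreated fl/fl library of the Wnt3a experiment to 0.80 in replicate 1 of untreated dm/fl cells of the Wnt3a experiment, and that dm/fl library stood apart in several of the genes below. The luminal markers Epcam, Krt8 and Krt18 summed to genotype medians of 1308 to 3111 CPM. The basal markers Krt5, Krt14 and Trp63 summed to a median of 34.9 CPM (8.07 to 162) in ΔC/- and 119 CPM (20.7 to 520) in dm/- cells. In the other genotypes their medians ran from 263 CPM in D164A/- to 710 CPM in D164A/fl cells, with 327 CPM in fl/fl cells. Their part in the differences of the members was not tested. The immune markers Ptprc and Itgam were near 0, while Cd68 had a median of 24.3 CPM (7.99 to 79.4) in ΔC/- and 23.2 CPM (12.9 to 62.2) in dm/- cells and medians of 1.33 to 4.68 CPM in the other genotypes. Axin2, a feedback target of Wnt signaling, rose with Wnt3a in 6 of 7 genotypes (log2 difference up to 5.98 ± 0.49 SE in D164A/fl), whereas in dm/- cells it was at 0 CPM in the untreated samples and at 0 and 0.0791 CPM in the treated ones. Smad7, an inhibitor that TGFβ signaling induces, rose with TGFβ in 6 of 7 genotypes, with log2 differences of 0.67 to 1.67 over the 7 genotypes. In these bulk samples fewer cells of a type and less RNA per cell cannot be told apart.

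The members covered a wide range of levels. Per kb of exon, the median level over the 56 samples was 233 CPM per kb for Ctnnb1 and 229 CPM per kb for Ctnna1. Jup and Ctnnd1 followed at 114 and 104 CPM per kb. The junction genes thus stood above all genes of the nuclear adaptor chain, where Pygo2 had 26.0, Bcl9l 11.4 and Bcl9 7.40 CPM per kb. Pygo1 was the lowest at 0.00823 CPM per kb, with no more than 3 reads in 32 of the 56 samples, and Pygo2 was therefore the Pygopus gene with reads throughout. Jup per kb was a median of 0.476 times Ctnnb1 in the same sample, with a range from 0.0974 to 1.86 times over the 56 samples. Bcl9l per kb was a median of 1.31 times Bcl9, with a range from 0.528 to 3.47 times.

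**Figure D1:**
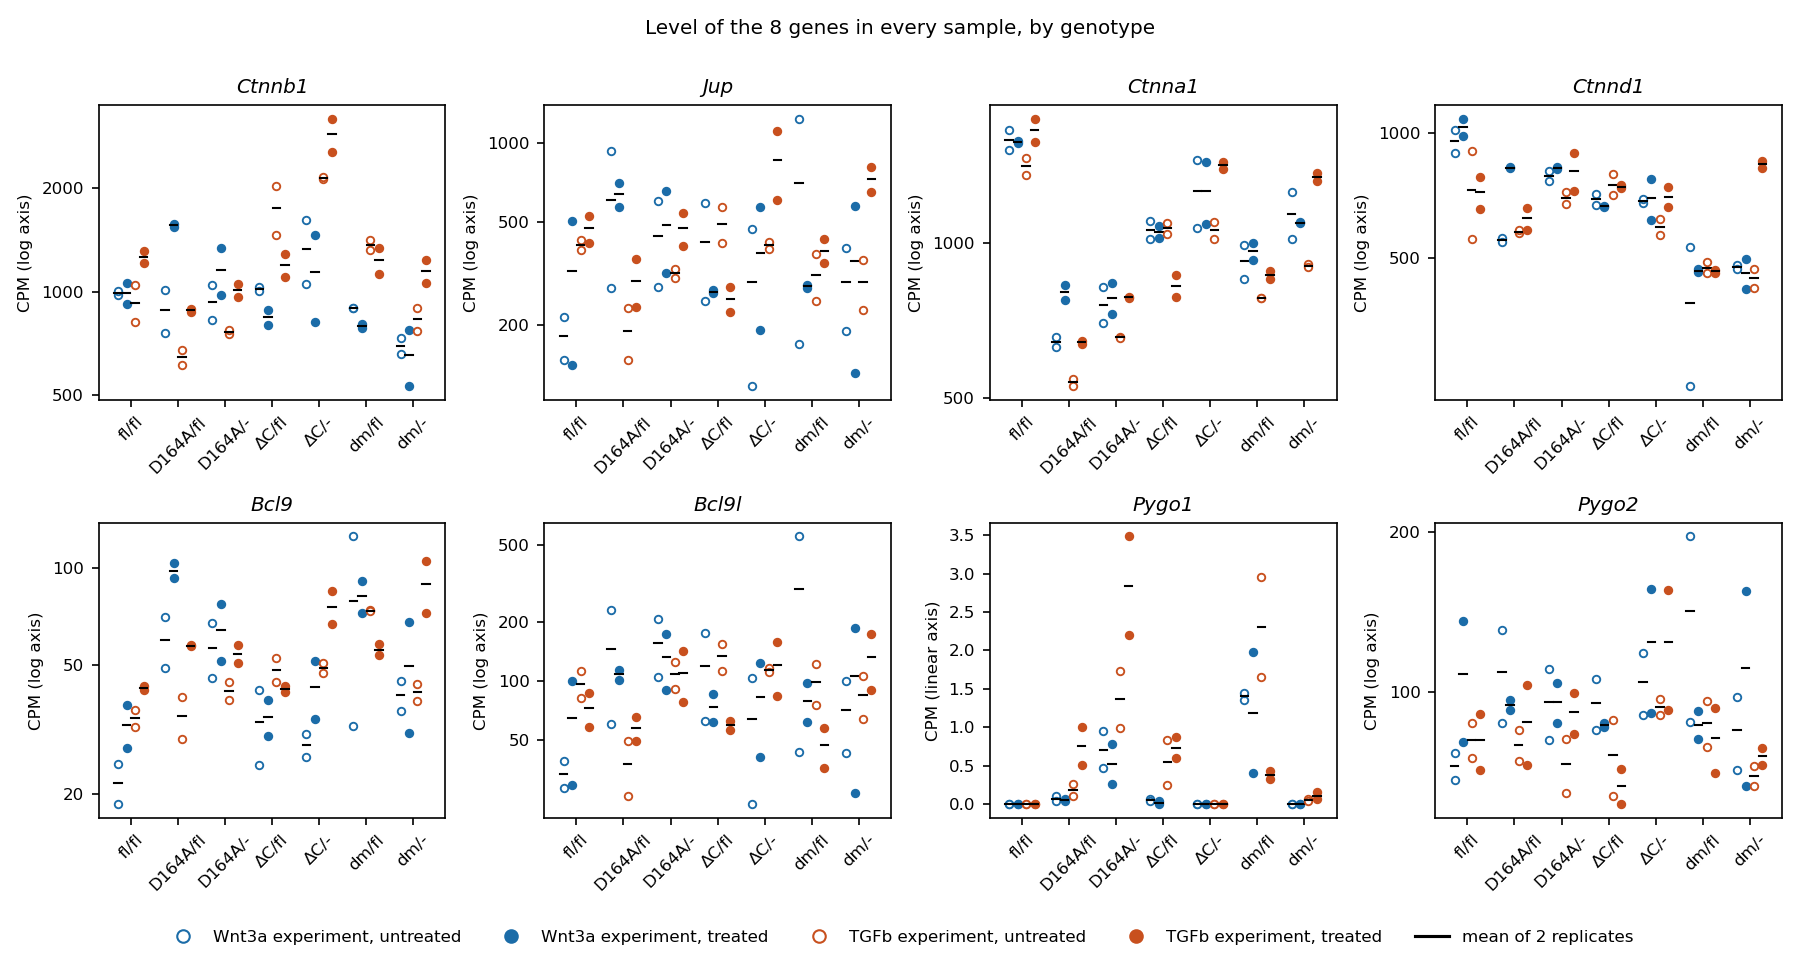
Level of the 8 genes in CPM in every sample, by genotype (8 samples each), on log axes except for Pygo1, which has a linear axis. Blue stands for the Wnt3a and orange for the TGFβ experiment, open points for untreated and filled points for treated cells, and dashes for the mean of 2 replicates. Ctnna1 has its highest median in fl/fl cells (1570 CPM, range 1360 to 1747), with ΔC/- and dm/- samples reaching into that range. Ctnnb1 reaches its highest values in ΔC/- cells, and Pygo1 is at 0 in all fl/fl and ΔC/- samples.

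The spread between replicates differed strongly between these genes and moved with GC content. Bcl9l, with the highest transcript GC of the 8 genes (60.9%), had a replicate SD of 0.91 on the log2 scale, which was 0.35 once the GC trend of each library was removed. For Jup (59.6% GC) the SD was 0.78 as deposited and 0.27 after the removal. Pygo2 and Bcl9 (56.5% and 55.97% GC) went from 0.35 to 0.18 and from 0.38 to 0.16. In contrast, the SD of Ctnna1 (47.8% GC) was 0.11 as deposited and 0.24 with the trend removed, and that of Ctnnb1 (52.6% GC) was 0.22 and 0.31. For Ctnna1 and Ctnnb1 the removal thus added spread, which their adjusted p-values with the trend removed carry below. Ctnnd1 (48.0% GC) had an SD of 0.20 and 0.16. The 4 genes with GC-rich transcripts were thus the ones whose differences had the widest errors in the deposited values.

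**Figure D2:**
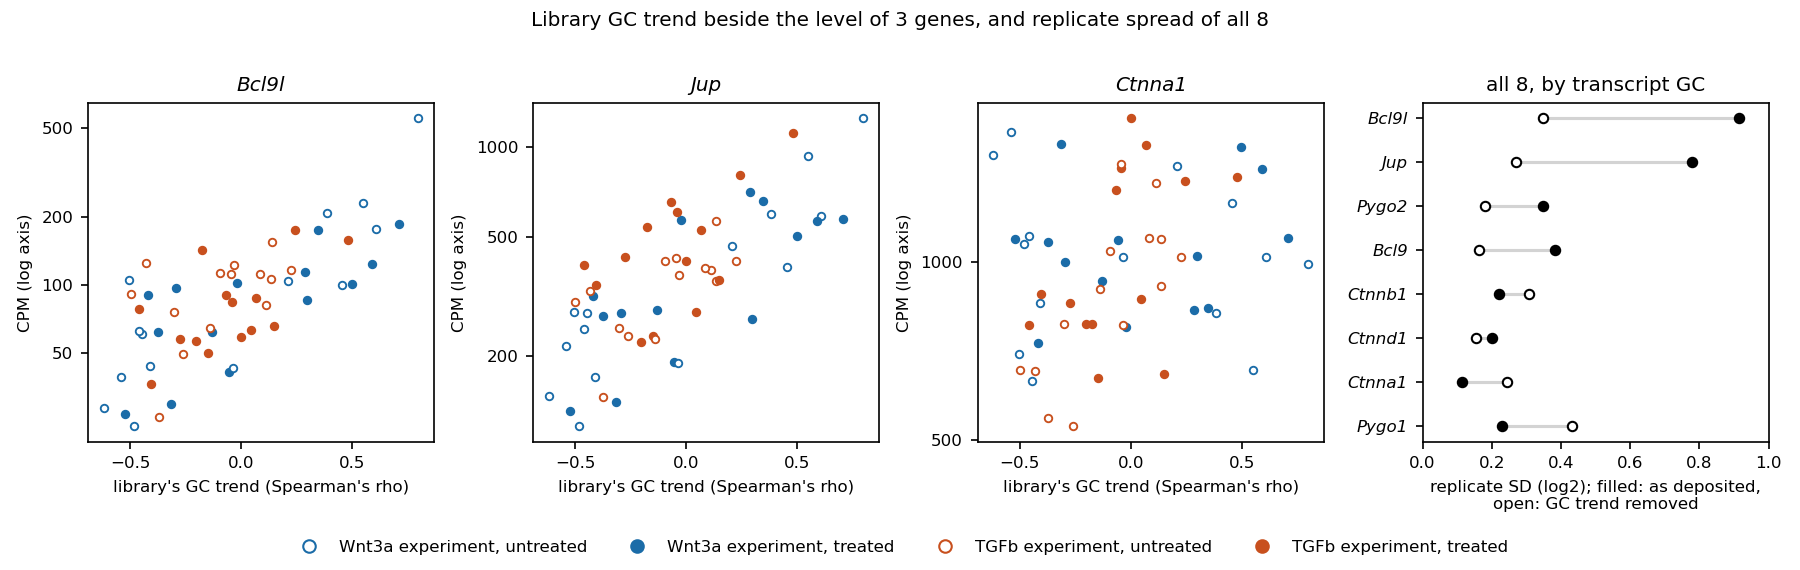
Left 3 panels: level of Bcl9l, Jup and Ctnna1 in CPM (log axes) against the GC trend of the library (Spearman's ρ), 1 point per sample, blue for the Wnt3a and orange for the TGFβ experiment, open for untreated and filled for treated. Right panel: SD between replicates on the log2 scale for the 8 genes in the order of their transcript GC, filled as deposited and open with the GC trend removed. Bcl9l and Jup are higher in libraries with a higher trend, and their SD falls most when the trend is removed (0.91 to 0.35 and 0.78 to 0.27).

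The first comparison was between each mutant genotype and fl/fl cells, over the 4 culture conditions. Of 48 tests on the members, 21 passed at an adjusted p of at most 0.05 (43.8%), 10 higher and 11 lower. Over all 13754 genes tested, 46.5% of tests passed in these comparisons, 24.4% higher and 22.1% lower, so the share among the members was near the background. The median difference of the 8 genes lay between 0.01 (dm/-) and 0.37 (ΔC/-) on the log2 scale, with medians of all genes between -0.00 and 0.04.

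Ctnna1 was lower than in fl/fl cells in all 6 mutant genotypes. The fl/fl samples had 1360, 1570 and 1747 CPM (lowest, median, highest), against 527, 642 and 830 CPM in D164A/fl and 655, 756 and 835 CPM in D164A/- cells. These groups did not overlap with fl/fl cells, and neither did ΔC/fl (786, 1033 and 1105 CPM) nor dm/fl cells (781, 867 and 999.8 CPM). The log2 difference was -1.26 ± 0.08 (SE; adjusted p = 7.61e-15) for D164A/fl, -1.06 (adjusted p = 3.89e-13) for D164A/-, -0.82 (adjusted p = 3.42e-10) for dm/fl and -0.64 (adjusted p = 5.66e-08) for ΔC/fl. The dm/- samples (899, 1096 and 1371 CPM) and the ΔC/- samples (1020, 1246 and 1454 CPM) reached into the range of fl/fl cells, with log2 differences of -0.49 (adjusted p = 6.79e-06) and -0.33 (adjusted p = 0.000892). All 6 differences also passed within the Wnt3a and within the TGFβ experiment. For ΔC/- cells the difference was -0.24 (adjusted p = 0.0854) with the GC trend removed.

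Because Ctnna1 and Ctnnb1 had similar medians, their ratio per kb was compared within each sample. In fl/fl cells Ctnna1 per kb was a median of 1.47 times Ctnnb1 (range 1.27 to 1.67). In D164A/fl cells the ratio was 0.715 (0.493 to 0.876) and in D164A/- cells 0.786 (0.614 to 0.859), so that neither overlapped with fl/fl cells. The median ratio was 0.866 (0.505 to 1.26) in ΔC/fl and 0.839 (0.545 to 1.22) in dm/fl cells, which also lay below the range of fl/fl cells. It was 0.595 (0.444 to 1.73) in ΔC/- and 1.29 (0.986 to 2.03) in dm/- cells, both overlapping with fl/fl cells. In dm/- cells both genes were lower than in fl/fl cells.

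The gene Ctnnd1 was lower than in fl/fl cells in 4 of 6 mutant genotypes. In fl/fl cells it ranged from 555 over 902 to 1086 CPM (lowest, median, highest), and in dm/fl cells from 245 over 465 to 531 CPM, without overlap. The dm/- samples had 421, 475 and 859 CPM, the highest being the TGFβ-treated ones. The log2 difference was -0.94 ± 0.11 (adjusted p = 1.5e-08) in dm/fl and -0.65 (adjusted p = 8.98e-06) in dm/- cells. It was -0.40 (adjusted p = 0.00313) in D164A/fl and -0.34 (adjusted p = 0.011) in ΔC/- cells, the latter ending without replicate 2 of untreated fl/fl cells of the TGFβ experiment (-0.25, adjusted p = 0.0596). Within the Wnt3a experiment all 4 passed (-1.28 to -0.53), and within the TGFβ experiment only dm/fl of these passed (-0.61, adjusted p = 0.00291).

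Ctnnb1 itself was higher than in fl/fl cells in ΔC/- cells and lower in dm/- cells, and was not shown to differ in the other 4 genotypes. The fl/fl samples had 815, 1026 and 1316 CPM (lowest, median, highest) and the ΔC/- samples 814, 1870 and 3188 CPM. The highest ΔC/- samples were the TGFβ-treated ones, at 3188 and 2552 CPM. The difference was 0.73 ± 0.12 on the log2 scale (adjusted p = 4.73e-06). It was 1.19 (adjusted p = 7.45e-07) within the TGFβ experiment and 0.27 (adjusted p = 0.234) within the Wnt3a experiment, whose ΔC/- samples went down to 814 CPM. In dm/- cells (531, 773 and 1234 CPM) the difference was -0.36 ± 0.12 (adjusted p = 0.0138), with -0.57 (adjusted p = 0.00864) in the Wnt3a and -0.15 (adjusted p = 0.56) in the TGFβ experiment. Without replicate 2 of the Wnt3a-treated dm/- cells it was -0.29 (adjusted p = 0.054). For D164A/fl and D164A/- cells the pooled differences were -0.14 and -0.12 ± 0.12, while D164A/fl cells were lower than fl/fl cells in the TGFβ experiment (-0.52, adjusted p = 0.018).

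The coactivator Bcl9 was higher than in fl/fl cells in 5 of 6 mutant genotypes. The fl/fl samples were the lowest of all genotypes, with 18.7, 34.4 and 43.2 CPM (lowest, median, highest). The medians of the mutants lay between 41.7 CPM in ΔC/fl and 72.9 CPM in dm/fl cells, and every range overlapped with that of fl/fl cells. The log2 difference was 1.07 ± 0.19 (adjusted p = 1.76e-05) in dm/fl, 0.85 (adjusted p = 0.000361) in D164A/fl, 0.72 (adjusted p = 0.00191) in D164A/-, 0.66 (adjusted p = 0.00418) in dm/- and 0.51 (adjusted p = 0.0219) in ΔC/- cells. In ΔC/fl cells it was 0.28 (adjusted p = 0.254), or 0.22 (adjusted p = 0.034) with the GC trend removed. In D164A/fl cells the difference was 1.49 (adjusted p = 3.03e-05) in the Wnt3a and 0.21 (adjusted p = 0.609) in the TGFβ experiment. In D164A/- cells these values were 1.13 (adjusted p = 0.000954) and 0.31 (adjusted p = 0.401), and in dm/fl cells both experiments passed (1.42 and 0.73). The call for ΔC/- cells ended when any of 4 of the 16 samples was left out, replicate 2 of untreated or of treated fl/fl cells of the Wnt3a experiment, or replicate 2 of Wnt3a- or TGFβ-treated ΔC/- cells (0.44 to 0.47, adjusted p = 0.0524 to 0.063).

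Its paralog Bcl9l, which was more variable, passed in none of the 6 comparisons by limma and in 1 at an unadjusted p under 0.05, which was D164A/- and also passed by edgeR. The D164A/- samples had the highest median (78.1, 115 and 208 CPM), against 28.4, 70.1 and 112 CPM in fl/fl cells. The difference was 1.00 ± 0.43 (log2, adjusted p = 0.0561). After removal of the GC trend it was 1.05 (adjusted p = 2.09e-06), and by edgeR on the reads the adjusted p was 0.048. Within the Wnt3a experiment it was 1.65 (adjusted p = 0.0346) and within the TGFβ experiment 0.36 (adjusted p = 0.704). Jup and Pygo2 also passed in none of the 6 comparisons by limma or edgeR (0 and 1 at an unadjusted p under 0.05), with Jup medians between 276 and 442 CPM and Pygo2 medians between 72.9 and 94.9 CPM in the 7 genotypes, and all ranges overlapping. With the GC trend removed, Jup was higher in D164A/- than in fl/fl cells by 0.47 (adjusted p = 0.00273).

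Pygo1 differed between genotypes by presence. No read was found in any of the 8 fl/fl and 8 ΔC/- samples. Over 8 samples each, 277 reads were found in D164A/-, 311 in dm/fl, 65 in ΔC/fl, 58 in D164A/fl and 9 in dm/- cells. The highest sample was a TGFβ-treated D164A/- sample with 3.48 CPM, and the dm/fl samples had 0.329, 1.40 and 2.95 CPM (lowest, median, highest). Against 3 reads over the fl/fl group, the level was at least 90.4-fold higher in D164A/-, 91.1-fold in dm/fl, 21.4-fold in ΔC/fl and 17.4-fold in D164A/fl cells. Without replicate 1 of TGFβ-treated D164A/fl cells, which held 27 of the 58 reads, the last of these was at least 10.5-fold. These 4 genotypes passed the test. With the GC trend removed, D164A/fl cells (adjusted p = 0.0306 as deposited) had an adjusted p of 0.103 and ΔC/fl cells (adjusted p = 0.00794) 0.0709. The removal also shifts values at 0, so that fl/fl samples without a read ran from -0.60 to 0.73 on the log2 scale. The replicate SD of Pygo1 was 0.23 as deposited and 0.43 after it, so these 2 adjusted p-values carry added spread. D164A/fl and ΔC/fl cells passed within the TGFβ experiment (0.52 and 0.70) and not within the Wnt3a experiment (0.08 and 0.05).

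The summed level of fibroblast markers was also higher in these 4 genotypes than in fl/fl cells. Col1a1, Col1a2, Pdgfra, Pdgfrb and Thy1 summed to a median of 8.38 CPM (5.43 to 31.9) in fl/fl, 9.83 CPM (6.46 to 26.3) in ΔC/- and 7.83 CPM (6.39 to 126) in dm/- cells. The sum was 63.3 CPM (54.1 to 78.2) in D164A/fl, 87.6 CPM (50.7 to 146) in D164A/-, 136 CPM (45.5 to 535) in dm/fl and 318 CPM (74.0 to 743) in ΔC/fl cells. In the D164A lines the sum was mostly Pdgfra, at medians of 58.2 CPM in D164A/fl and 77.7 CPM in D164A/- cells against 4.28 CPM in fl/fl cells, whereas Pdgfrb was lower there (0.0887 and 0.0182 CPM) than in fl/fl cells (3.53 CPM) and Col1a2 was near 0. In ΔC/fl and dm/fl cells Pdgfrb was at 212 and 59.2 CPM. Thy1 was near 0 in all samples. Their part in the differences of Pygo1 was not tested.

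**Figure D3:**
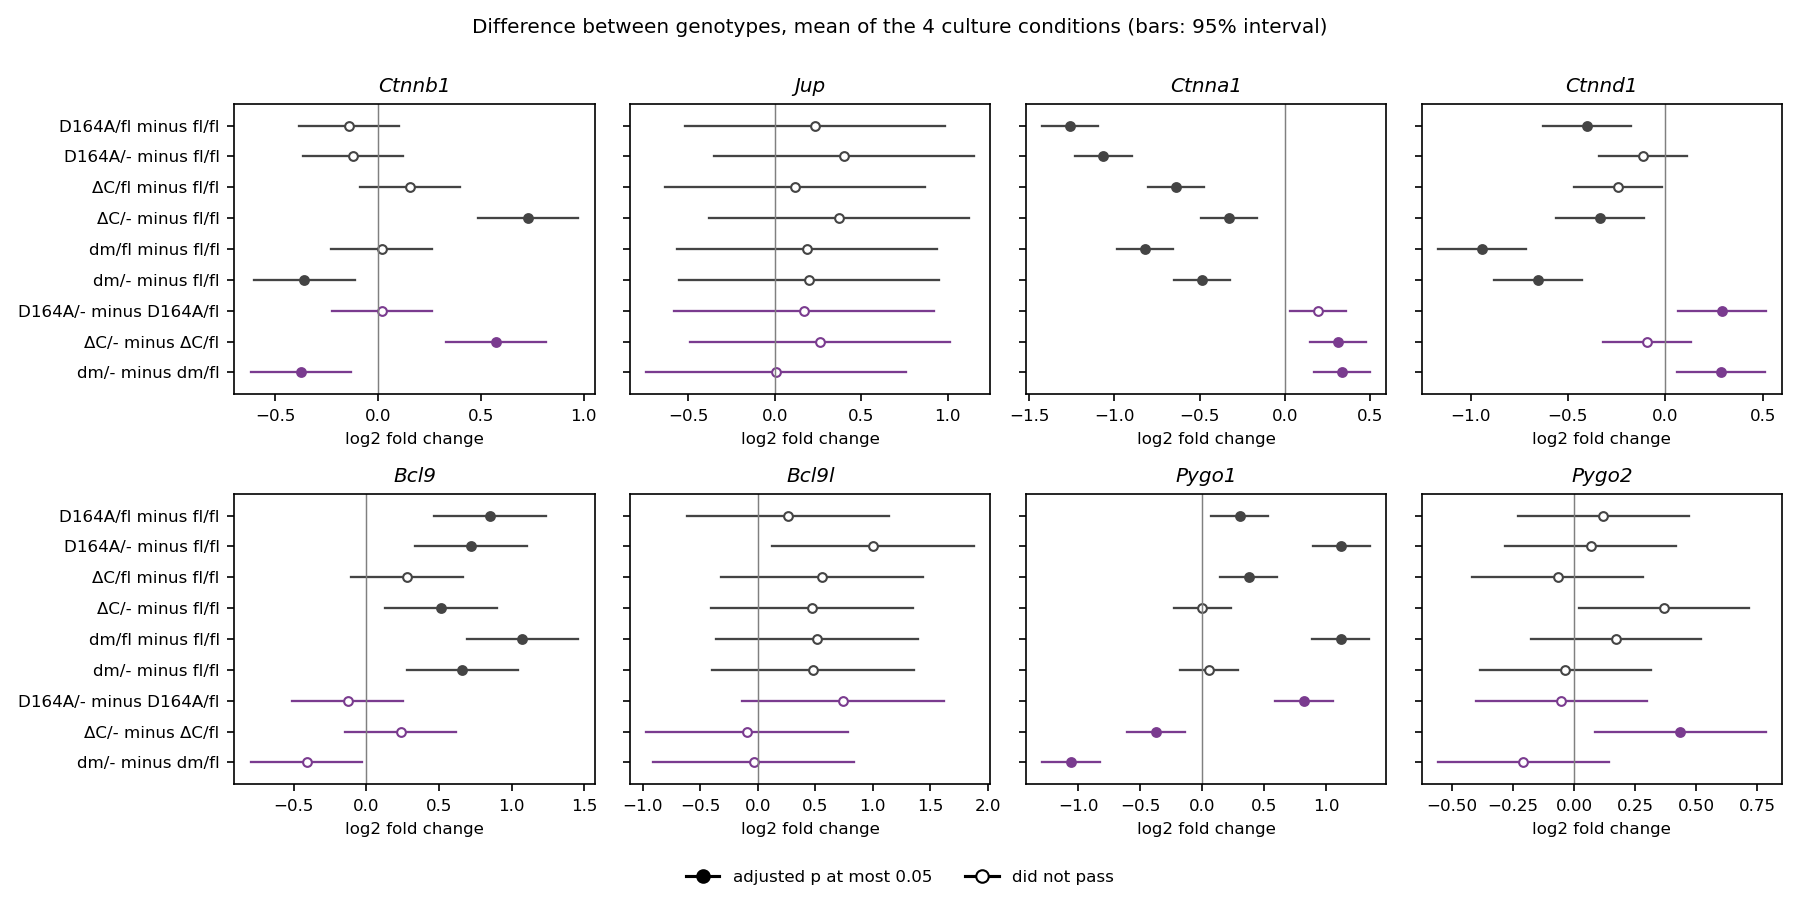
Log2 difference from fl/fl for the 6 mutant genotypes and difference between deleted and floxed second allele for the 3 mutant alleles, each over the 4 culture conditions, for the 8 genes. Points are estimates from limma on log2(CPM + 1), bars the 95% intervals, and filled points passed at an adjusted p of at most 0.05. Ctnna1 lies below 0 in all 6 mutant genotypes (-1.26 to -0.33) and Bcl9 above 0 (0.28 to 1.07).

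The next comparison was between deleted and floxed cells with the same mutant allele. By the methods the deleted lines had also been infected with adenovirus and sorted, which is assumed here for ΔC and dm. Loss of the allele thus cannot be told apart from other differences between the lines. Of 24 tests on the members, 10 passed (41.7%), 7 higher and 3 lower in the deleted cells, against 38.6% of tests over all genes (18.8% higher and 19.8% lower). The median difference of the 8 genes was 0.18 for D164A, 0.25 for ΔC and -0.12 for dm on the log2 scale. Ctnnb1 was higher in the deleted cells with 1 mutant allele and lower with another.

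With the D164A allele, Ctnnb1 had medians of 883 CPM in floxed and 972 CPM in deleted cells, and the difference was 0.02 ± 0.12 (adjusted p = 0.945, 95% interval -0.23 to 0.26). With the ΔC allele it was higher in the deleted cells. The floxed and deleted samples overlapped, at 800 to 2030 CPM and 814 to 3188 CPM, and the log2 difference was 0.57 ± 0.12 (adjusted p = 0.000226). Within the TGFβ experiment it was 0.78 (adjusted p = 0.000511), and within the Wnt3a experiment 0.36 (adjusted p = 0.124). With the dm allele Ctnnb1 was lower in the deleted cells, at 531 to 1234 CPM against 784 to 1410 CPM. The difference was -0.37 ± 0.12 (adjusted p = 0.0103), and neither experiment alone passed (-0.34 and -0.41).

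The α-catenin gene was higher in deleted cells with the ΔC allele (0.31 ± 0.08, adjusted p = 0.00223) and with the dm allele (0.33, adjusted p = 0.000954). With D164A the difference was 0.19 (adjusted p = 0.0705). In the ΔC lines the median of Ctnna1 was 1033 CPM with the floxed allele and 1246 CPM without it. In the dm lines it was 867 and 1096 CPM. Both calls passed within the TGFβ experiment alone (0.38, adjusted p = 0.0108, and 0.42, adjusted p = 0.00425) and not within the Wnt3a experiment (0.24 in each). Untreated samples of that TGFβ experiment overlapped between ΔC/fl (1043 and 1093 CPM) and ΔC/- cells (1020 and 1099 CPM). The treated ones did not, at 867 and 786 against 1439 and 1393 CPM. In the dm lines the untreated samples also differed, at 783 and 781 CPM in floxed and 910 and 899 CPM in deleted cells.

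Ctnnd1 was higher in deleted cells with D164A (0.29 ± 0.11, adjusted p = 0.0469) and with dm (0.29, adjusted p = 0.0336). The D164A/- samples had 676, 789 and 895 CPM and the D164A/fl samples 546, 584 and 828 CPM. Only the Wnt3a-treated floxed samples, at 823 and 828 CPM, reached above the median of the deleted cells. This call ended when any of 15 of the 16 samples was left out (adjusted p up to 0.119). Neither call passed within 1 experiment alone. The dm call rested on replicate 1 of untreated dm/fl cells of the Wnt3a experiment, which had 245 CPM beside 531 CPM in replicate 2. Without it the difference was 0.15 (adjusted p = 0.157).

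In the adaptor chain, Bcl9 passed for none of the mutant alleles by limma and for 1, the dm allele, by edgeR and at an unadjusted p under 0.05. The dm lines had the largest difference, with a median of 72.9 CPM in floxed and 44.3 CPM in deleted cells (-0.41 ± 0.19, adjusted p = 0.0727), which was -0.51 (adjusted p = 7.26e-06) with the GC trend removed, -0.73 (adjusted p = 0.0332) within the Wnt3a experiment and -0.10 within the TGFβ experiment. Bcl9l had a difference of 0.74 ± 0.43 (adjusted p = 0.213) in the D164A lines, which was 0.90 (adjusted p = 5.35e-05) with the trend removed. Pygo2 was higher in ΔC/- than in ΔC/fl cells (0.44 ± 0.17, adjusted p = 0.0425), with medians of 94.9 and 85.5 CPM and overlapping ranges, and the call ended when any of 10 of the 16 samples was left out (adjusted p up to 0.139). In the dm lines its difference of -0.21 (adjusted p = 0.338) was -0.31 (adjusted p = 0.00557) with the trend removed.

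The sign of the Pygo1 difference was not the same for the 3 mutant alleles. It was 5.19-fold higher in D164A/- than in D164A/fl cells (log2 difference of CPM + 1 of 0.82, adjusted p = 6.67e-07; 0.59 in the Wnt3a and 1.06 in the TGFβ experiment, both passing). Without the D164A/fl library that held 27 of 58 reads it was 8.57-fold. It was at least 21.9-fold higher in ΔC/fl than in ΔC/- cells, where no read was found (adjusted p = 0.0085), and passed within the TGFβ experiment but not within the Wnt3a experiment (-0.70 and -0.05). In dm/fl cells it was 32.7-fold higher than in dm/- cells (adjusted p = 1.81e-09), where 4 of 8 samples were at 0 and all 9 reads came from the TGFβ experiment. Without replicate 1 of TGFβ-treated dm/- cells, which held 4 of these reads, it was 51.9-fold. The ΔC call was -0.29 (adjusted p = 0.261) with the GC trend removed, a removal that also shifts values listed at 0.

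The response to TGFβ was then tested within each genotype. Of 56 tests on the members, 3 passed (5.36%), against 8.13% of tests over all genes. With the replicate number as a block 8 passed (14.3%), against 16.1% of tests over all genes. In the mean over the 7 genotypes the median of the 8 genes was 0.21 on the log2 scale, with -0.02 for all genes, and 1 of 8 genes passed, where 28.8% of all genes did. That gene was Ctnna1, which was higher with TGFβ in 6 of 7 genotypes (0.22 ± 0.06, adjusted p = 0.00657). Bcl9 (0.36 ± 0.14, adjusted p = 0.0598) and Ctnnd1 (0.21 ± 0.08, adjusted p = 0.0652) passed with the GC trend removed, at 0.30 (adjusted p = 0.000498) and 0.21 (adjusted p = 0.00769).

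Of the 3 single calls, 2 were in dm/- cells, where 8.01% of all genes passed. There Ctnnd1 rose from 423 and 471 CPM in untreated to 825 and 859 CPM in TGFβ-treated cells, without overlap. The log2 difference was 0.92 ± 0.22 (adjusted p = 0.00606). It was 0.84 (adjusted p = 0.0852) without replicate 1 of the untreated and 0.89 (adjusted p = 0.0652) without replicate 2 of the treated cells. In the other 6 genotypes Ctnnd1 differed by -0.03 to 0.24, none passing. Ctnna1 rose in the same cells from 910 and 899 to 1371 and 1321 CPM, again without overlap (0.57 ± 0.16, adjusted p = 0.0214). This call ended when any of the 4 samples was left out (0.55 to 0.60, adjusted p = 0.0964 to 0.144) and with the GC trend removed (0.61, adjusted p = 0.0966).

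The other genes of dm/- cells did not pass. Except for Bcl9l, whose groups overlapped, their treated samples lay above the untreated ones. The gap was small for Pygo2 (73.1 and 78.8 against 66.8 and 72.6 CPM). How often all genes had this order in 2 samples against 2 was not counted, so no shift is read from it. Bcl9 was at 43.8 and 38.8 CPM in untreated and at 105 and 72.6 CPM in treated dm/- cells (1.07 ± 0.38, adjusted p = 0.0826). Jup was at 357 and 229 CPM in untreated and at 807 and 652 CPM in treated cells (1.34 ± 0.74, adjusted p = 0.357). With the GC trend removed both passed, at 1.01 (adjusted p = 9.54e-05) and 1.35 (adjusted p = 0.000438). The mean response of Jup over the genotypes was 0.45 ± 0.28 (adjusted p = 0.254) as deposited and 0.40 (adjusted p = 0.00185) with the trend removed. With the trend removed Jup also passed in ΔC/fl cells, where it was lower with TGFβ (-0.80, adjusted p = 0.0378, and -0.95 as deposited), and in ΔC/- cells, where it was higher (0.78, adjusted p = 0.0403, and 1.02 as deposited).

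The third call was Pygo1 in dm/fl cells, which fell from 2.95 and 1.66 CPM to 0.436 and 0.329 CPM with TGFβ (log2 difference of CPM + 1 of -1.23 ± 0.23, adjusted p = 0.000145). In D164A/- cells its values were 1.74 and 0.99 CPM without and 3.48 and 2.20 CPM with TGFβ (0.70, adjusted p = 0.0754). Ctnnb1 passed in none of the 7 genotypes by limma or edgeR, with 1 at an unadjusted p under 0.05. It differed by 0.40 to 0.46 in fl/fl, D164A/fl, D164A/-, ΔC/- and dm/- cells, by -0.53 in ΔC/fl and by -0.15 in dm/fl cells. In ΔC/fl cells the untreated samples were at 2030 and 1463 CPM and the treated ones at 1288 and 1108 CPM, whereas the untreated cells of the Wnt3a experiment, of the same genotype, were at 1035 and 1005 CPM. The untreated ΔC/fl cells of the TGFβ experiment thus lay above those of the Wnt3a experiment, without overlap. This was not particular to ΔC/fl cells. Untreated dm/fl cells were at 1327 and 1410 CPM against 899 and 899 CPM, and ΔC/- and dm/- cells were also higher in the TGFβ experiment. D164A/fl cells (612 and 679 against 759 and 1012 CPM) and D164A/- cells were lower there, and fl/fl cells overlapped.

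**Figure D4:**
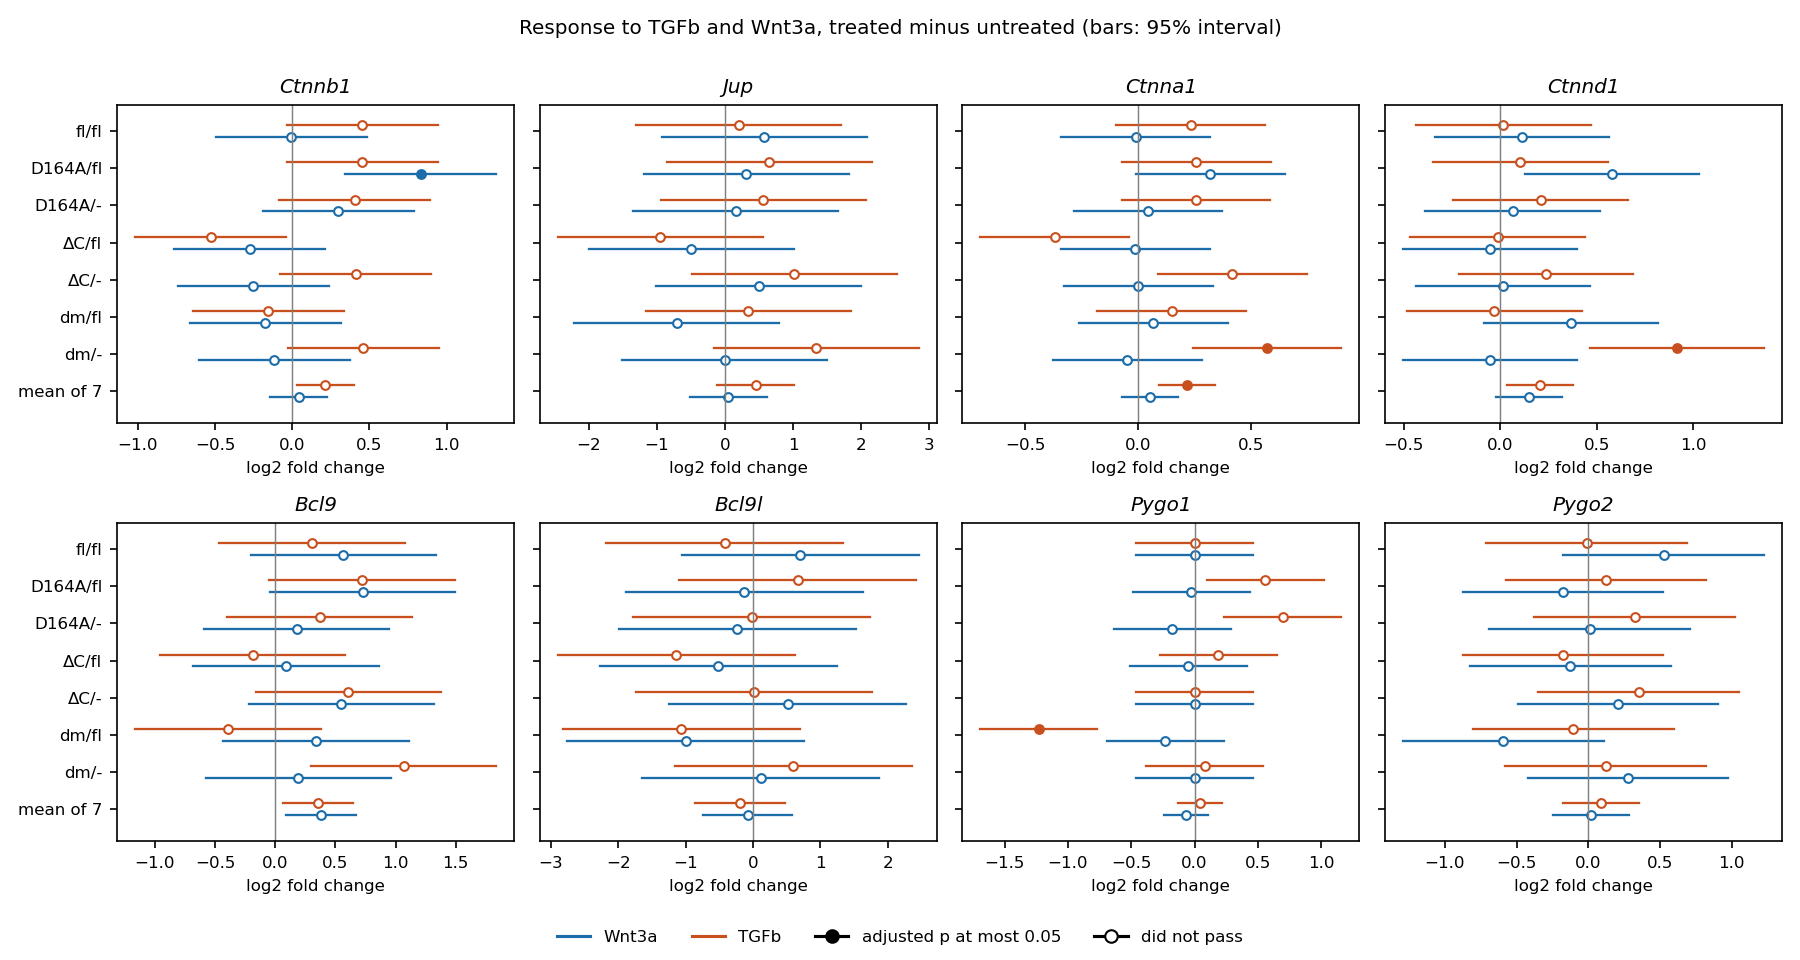
Log2 difference between treated and untreated cells for the 8 genes in the 7 genotypes, for Wnt3a and for TGFβ. Points are estimates from limma on log2(CPM + 1), bars the 95% intervals, and filled points passed at an adjusted p of at most 0.05. Of 56 tests each, 1 passed with Wnt3a (Ctnnb1 in D164A/fl cells) and 3 with TGFβ (Ctnna1 and Ctnnd1 in dm/-, Pygo1 in dm/fl cells).

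For Wnt3a, 1 of 56 tests on the members passed (1.79%), against 1.1% of tests over all genes. In the mean over the genotypes none of the 8 genes passed by limma or edgeR, with 1 (Bcl9) at an unadjusted p under 0.05, where 3.52% of all genes passed, and the median of the 8 genes was 0.05 on the log2 scale. The call was Ctnnb1 in D164A/fl cells, at 759 and 1012 CPM in untreated and at 1548 and 1576 CPM in Wnt3a-treated cells (0.83 ± 0.24, adjusted p = 0.0324). The groups did not overlap, and in the other 6 genotypes Ctnnb1 differed by -0.28 to 0.30, none passing. The call ended without replicate 1 of the untreated cells (0.63, adjusted p = 0.385) and without replicate 1 or 2 of the treated cells (0.85 and 0.82, adjusted p = 0.169 and 0.203). It also ended with the GC trend removed (0.84, adjusted p = 0.0879) and by edgeR (0.82, adjusted p = 0.0549). Removal of the trend raised the replicate SD of Ctnnb1 from 0.22 to 0.31.

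Bcl9 was higher with Wnt3a in 7 of 7 genotypes, by 0.09 to 0.73, none passing as deposited, and the mean difference was 0.38 ± 0.14 (adjusted p = 0.214). With the GC trend removed it was 0.36 (adjusted p = 0.000612). With the trend removed Bcl9 also passed in D164A/fl cells (0.82, adjusted p = 0.00167, and 0.73 as deposited) and in dm/fl cells (0.89, adjusted p = 0.00741, and 0.34 as deposited), and Ctnnd1 in D164A/fl cells (0.56, adjusted p = 0.0332, and 0.58 as deposited). Without replicate 1 of untreated dm/fl cells the mean difference of Bcl9 was 0.51 (adjusted p = 0.00433). That library had 125 CPM of Bcl9, 551 CPM of Bcl9l, 1243 CPM of Jup and 196 CPM of Pygo2, beside 32.6, 43.6, 170 and 87.9 CPM in replicate 2. Leaving it out turned the Wnt3a difference in dm/fl cells from -0.997 to 0.817 for Bcl9l, from -0.71 to 0.73 for Jup and from 0.37 to -0.19 for Ctnnd1, none of which passed either way.

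Whether a response differed between deleted and floxed cells was tested directly as a difference of differences. Of 48 tests on the members, 2 passed (4.17%), against 2.37% of tests over all genes, both for TGFβ. Ctnna1 was at 1043 and 1093 CPM in untreated and at 867 and 786 CPM in treated ΔC/fl cells, and at 1020 and 1099 CPM in untreated and at 1439 and 1393 CPM in treated ΔC/- cells. The untreated samples of both genotypes overlapped, the treated ones did not, and the responses differed by 0.79 ± 0.23 (adjusted p = 0.0472). This call ended when any of the 8 samples was left out (0.72 to 0.86, adjusted p = 0.083 to 0.201). Pygo1 responded differently in dm/- and dm/fl cells (1.31 ± 0.32, adjusted p = 0.00662), where the dm/- samples held 9 reads in all, and the call ended without replicate 1 of untreated dm/fl cells of the TGFβ experiment (1.02, adjusted p = 0.0989). For Ctnnd1 the TGFβ responses of dm/- and dm/fl cells differed by 0.95 ± 0.31 (adjusted p = 0.059), and for Ctnnb1 those of ΔC/- and ΔC/fl cells by 0.94 ± 0.34 (adjusted p = 0.145). With the GC trend removed the Ctnna1 and Pygo1 calls ended (0.91, adjusted p = 0.136, and 1.57, adjusted p = 0.0811), and 4 others passed. These were the TGFβ responses of dm/- against dm/fl cells for Bcl9 (1.29, adjusted p = 0.000432), Ctnnd1 (1.04, adjusted p = 0.00278) and Bcl9l (1.45, adjusted p = 0.0403), and that of ΔC/- against ΔC/fl cells for Jup (1.58, adjusted p = 0.00968).

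The genes around the members were read from lists of relatives and partners, with 28.8% of all genes passing in the mean response to TGFβ and 3.52% in that to Wnt3a. With TGFβ, in the mean over the genotypes, 2 of 8 tested armadillo relatives rose and 1 fell. Plakophilin 2 (Pkp2), a desmosomal protein, rose by 0.66 ± 0.12 and Pkp1 by 0.55, while Pkp4 fell by 0.27. They passed in 3, 2 and 1 of 7 genotypes. Of 12 genes of the complex that degrades β-catenin, the ubiquitin ligase subunit Btrc rose (0.41 ± 0.08, adjusted p = 0.000227). Of 18 nuclear partners 5 rose and 1 fell. Among them were the Wnt-pathway transcription factors Lef1 (0.97 ± 0.14) and Tcf7l2 (0.79 ± 0.09), and the Ldb1-binding protein Ssbp2, which fell by 0.95. Lef1 was low, at medians of 1.48 CPM in untreated and 2.61 CPM in treated cells.

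Of 11 junction partners 2 rose and 3 fell with TGFβ. N-cadherin (Cdh2) rose by 0.91 ± 0.16 and vinculin (Vcl), an actin-binding partner of α-catenin, by 0.52. Each passed in 2 of 7 genotypes. E-cadherin (Cdh1) fell by 0.55 ± 0.13 (adjusted p = 0.00117), being lower in 5 of 7 genotypes and passing in 2. Its median over the samples of the TGFβ experiment was 471 CPM in untreated and 479 CPM in treated cells. Afadin (Afdn) fell by 0.35, passing in 1 genotype. With Wnt3a none of the 8 armadillo relatives passed by limma, with 2 at an unadjusted p under 0.05, and of the degradation complex Axin2 alone rose (4.26 ± 0.19). Of the nuclear partners Tcf7, itself a Tcf/Lef factor, rose by 1.02 ± 0.09 and Tcf7l2 by 0.48, each in 7 of 7 genotypes. Desmoplakin (Dsp) rose by 0.28 ± 0.08 (adjusted p = 0.0455).

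Genes whose level closely followed that of a member over the 28 conditions were also listed, as a description without a test, since conditions share genotypes and library GC trends. Among the genes listed for Ctnna1 were Cpne1 (r = 0.88) and Procr (0.87). Ctnnb1 was most like Ifnar1 (0.83), Ctnnd1 most like Sec23ip (0.85), Bcl9 most like Mau2 (0.86) and Pygo2 most like Dgcr2 (0.82). Bcl9l and Jup were most like Cic (0.86) and Ptov1 (0.85). Pygo1 was most like Tbx15 and Tacc1 (0.73 each) and Pdgfra (0.72), 1 of the fibroblast markers given above. Among the members, Jup and Bcl9l had the highest correlation (0.77, and 0.64 with the GC trend removed), followed by Jup and Bcl9 (0.69 and 0.63). For Jup and Ctnnd1 it was 0.13 as deposited and 0.51 with the trend removed.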

How the data were processed

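Poly(A) RNA of 56 samples was analysed. According to the methods, the authors mapped single-end reads to mm10 with STAR, keeping unique hits, and counted reads starting in RefSeq exons with qCount of QuasR. The deposited values are a normalized signal per M reads of an effective library size (CPM), and in every sample 100% of them came out as whole reads (tolerance 0.001 reads). The 13754 genes that reached 1 CPM in 2 or more samples were kept, all 8 members included. Values were tested as log2(CPM + 1), so that changes of low genes are understated, with limma 3.58.1 in R 4.3.3, with 1 coefficient for each of the 28 conditions and Benjamini-Hochberg adjustment over all genes. A test passed at an adjusted p of at most 0.05. The 8 members and the gene lists were chosen with earlier results of these data known. Named are all members, and of each list the 2 genes with the largest increase and decrease among those that passed, and the 3 genes most correlated with a member, except results not reported here. For the GC trend, each gene's deviation was smoothed against transcript GC (lowess, span 0.3, 9381 genes) and the curve subtracted. Tests were repeated with a pseudocount of 0.1, without the filter, with median-of-ratios scaling, with the GC trend removed, by edgeR 4.0.16 on the whole reads, on the compared samples alone, with a block for the replicate number, with that block and the GC trend removed, and without each sample in turn. Scripts were tested on simulated data. Limits of 3 reads cover counting error only.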

Additional observations from a re-analysis of the deposited data

Results flagged for a closer look

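Responses to TGFβ that differed between deleted and floxed cells by a test of the difference itself were found for 2 members. These were 2 of 48 member tests (4.17%), against 2.37% of tests over all genes, and neither call was stable. For Ctnna1 the response in ΔC/- cells exceeded that in ΔC/fl cells by 0.79 on the log2 scale, a call that ended under 5 of 8 alternatives. For Pygo1 the response in dm/- cells exceeded that in dm/fl cells by 1.31, with 9 reads of Pygo1 in all dm/- samples together. This call ended under 2 of 8 alternatives, with the GC trend removed and by edgeR.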

How the results depend on the processing

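Of 38 results that passed, 26 stayed past the threshold under all 8 alternatives and 23 of these also when any sample was left out, and none reversed. Among 48 tests of a difference in response, 2 passed, and 1 did with a pseudocount of 0.1 or no filter, 4 with the GC trend removed (8.33%, 2.99% of all tests) and 0 by edgeR. For TGFβ, 3 of 56 passed, and 6 did with the GC trend removed (10.7%, 12.2%) and 1 with only the samples compared. For Wnt3a, 1 of 56 passed, and 3 did with the GC trend removed (5.36%, 1.37%) and 0 by edgeR or with only the samples compared. Leaving out 1 sample gave 0 to 6 for the difference in response, 1 to 3 for TGFβ, 0 to 6 for Wnt3a, 8 to 12 of 24 for deleted against floxed and 20 to 25 of 48 for the mutants against fl/fl. The 6 for Wnt3a and for the difference came without replicate 2 of untreated dm/fl cells of the Wnt3a experiment, where without replicate 1 they were 2 and 4. The cause was not tested. The share over all genes is not given here for the counts with 1 sample left out. It is also not given for those with a pseudocount of 0.1, no filter, edgeR or only the samples compared. Whether the members moved more than other genes in these fits is therefore not shown. At an unadjusted p under 0.05, 2 tests for Wnt3a and 5 for the difference passed by limma. With the replicate number as a block 8 tests passed for TGFβ (14.3% of member tests, 16.1% of all), 1 for Wnt3a (1.79%, 3.49%) and 5 for the difference (10.4%, 5.78%), and with the block and the GC trend removed 18 (32.1%, 27.2%), 6 (10.7%, 5.60%) and 9 (18.8%, 9.83%). The labels do not say what a number shares. Deviations of same-numbered untreated and treated samples correlated at -0.25 to 0.94 (over 0.1 in 12 of 14 pairs), those of deleted and floxed samples at -0.60 to 0.81 (7 of 12). With the GC trend removed these were 0.13 to 0.93 (14 of 14) and -0.21 to 0.58 (9 of 12). Same-numbered untreated and treated samples thus deviated alike in most pairs with either set of values, and in all pairs only with the trend removed. The responses were read from the fit without the block, which leaves this likeness out. This choice was kept with the counts under the block known. Pygo1, with 3 reads or fewer in 32 samples, is limited by depth.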
